A study of Homo sapiens with 12 samples.

Results

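The GADD45 genes, the sestrins and DDIT4 are stress-induced genes that slow growth, and 8 genes are described here out of the 23153 listed in all 3 tables of the series. They are DDIT4 (REDD1), SESN1, SESN2, SESN3, GADD45A, GADD45B, GADD45G and GADD45GIP1, taken by gene symbol. The set was chosen with earlier results of these data known, so it is not independent of them. DDIT4 and the sestrins restrain mTORC1, the kinase complex that couples nutrients to growth: DDIT4 acts through the TSC1 and TSC2 brake, and sestrins act through GATOR2, which SESN2 releases when it binds leucine. GADD45A, GADD45B and GADD45G are small acidic proteins that bind the stress kinase MAP3K4, the replication clamp PCNA and the CDK1 and cyclin B complex. GADD45GIP1 is named for binding GADD45 proteins and is a component of the large subunit of the mitochondrial ribosome.

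The cells were K562, a human leukemia line of erythroid character, and the series asks how cells respond to an excess of saturated fatty acid. Of the acids used, palmitate is saturated, and palmitoleate has the same chain with a single double bond. Experiment 1 held wild-type cells given palmitoleate, given palmitate or left untreated. Experiment 2 held wild-type cells given both acids, GPAT4ko cells given palmitate, and wild-type cells given palmitate or left untreated. GPAT4 is an enzyme of the endoplasmic reticulum that adds the first acyl chain in making glycerolipids. Experiment 3 held RNF213kd and wild-type cells, each given palmitate or left untreated, and RNF213 is a large ubiquitin ligase. Palmitate was used at 0.2 mM on albumin. The labels give 20 h, and the legends in the tables of experiments 2 and 3 give 16 h. The legend gives 0.2 mM palmitoleate in the mixture, and no dose is given for palmitoleate alone. The labels do not say how the knockout and knockdown were made, or whether either is 1 clone.

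The labels list 12 libraries in 8 groups, of which 11 libraries were used. Wild type had 3 palmitate and 3 untreated libraries, 1 of each per experiment, and every other group had 1. RNA of 3 biological replicates was pooled for each library, so the spread given here is between experiments. Values are FPKM, a level per transcript length and per library size, with 10495 to 11108 genes at 1 FPKM or more in a library. Read counts are not given. AGPAT6, the files' symbol for GPAT4, stood at 8.77 FPKM in GPAT4ko cells with palmitate and 20.0 FPKM in wild type with palmitate. RNF213 stood at 1.39 FPKM in untreated RNF213kd cells and 1.96 FPKM in untreated wild type, and at 1.54 FPKM in RNF213kd cells with palmitate and 3.08 FPKM in wild type with palmitate. The erythroid marker HBG1 stood at 525 to 4635 FPKM, and all 8 K562 markers reached 1 FPKM in some library. Of 5 markers each, 2 T cell, 1 monocyte, 1 fibroblast, 2 epithelial, 0 B cell and 0 endothelial markers did, and the summed epithelial markers stood at 122 to 590 FPKM. The part of these markers in the results was not tested.

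Promoter sequence is shown for the members that rose with palmitate and have an entry in the RefSeq promoter table (GRCh38.p14). The table holds 7 of the 8 members, and each entry runs from 250 bases before the gene's start to 50 after it. The capitals mark the CCAAT box, a common core promoter element, on either strand (ATTGG on the other one). DDIT4 lies at chr10:72273674-72273973 (+), SESN2 at chr1:28259268-28259567 (+) and GADD45B at chr19:2475877-2476176 (+).
DDIT4: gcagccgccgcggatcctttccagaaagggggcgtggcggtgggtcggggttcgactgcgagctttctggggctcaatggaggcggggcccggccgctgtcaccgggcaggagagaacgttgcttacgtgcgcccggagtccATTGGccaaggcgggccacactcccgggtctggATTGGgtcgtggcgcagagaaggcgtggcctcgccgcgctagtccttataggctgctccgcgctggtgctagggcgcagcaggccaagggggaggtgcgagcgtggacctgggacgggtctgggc
SESN2: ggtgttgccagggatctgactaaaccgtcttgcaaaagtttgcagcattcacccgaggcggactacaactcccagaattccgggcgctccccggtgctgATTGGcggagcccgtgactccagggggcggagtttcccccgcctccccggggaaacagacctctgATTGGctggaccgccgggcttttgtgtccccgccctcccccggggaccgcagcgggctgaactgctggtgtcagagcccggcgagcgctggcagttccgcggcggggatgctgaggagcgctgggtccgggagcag
GADD45B: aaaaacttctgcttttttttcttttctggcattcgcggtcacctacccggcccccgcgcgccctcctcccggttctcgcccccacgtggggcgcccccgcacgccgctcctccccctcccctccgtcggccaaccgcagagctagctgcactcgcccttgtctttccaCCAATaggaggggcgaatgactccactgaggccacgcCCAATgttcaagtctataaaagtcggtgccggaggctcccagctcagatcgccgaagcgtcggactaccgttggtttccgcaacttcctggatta

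Each of these 3 promoters held 2 CCAAT boxes, at -108 and -75 in DDIT4, at -151 and -86 in SESN2 and at -82 and -45 in GADD45B, counted from the start. A CCAAT box occurred in 34.6% of all 35116 promoters of that length, and 2 or more in 10.8%. Members not shown held it too, at -79 in GADD45G and at -75 and -90 in separate windows of SESN1. A link of these motifs to the rise with palmitate was not tested. The other motifs searched on both strands were TGATGNAA, the core bound by C/EBP and ATF4 dimers, TGANTCA for AP-1, TGACNNNGC for the antioxidant response element and ACGTG for hypoxia-inducible factors, found in 3.62%, 7.71%, 13.3% and 21.4% of promoters. ACGTG lay at -125 in DDIT4, and at -168 and -167 in GADD45B as overlapping matches on opposite strands. It also lay at -143 and -142 in GADD45G, again as overlapping matches. TGATGNAA was not in these 3 windows and lay at -102 in GADD45G. TGACNNNGC lay at -169 in GADD45G and at -159 in SESN1. In hg19, the build of the tables, DDIT4 spans chr10:74033676-74035797 (+), SESN2 chr1:28585962-28609002 (+), GADD45A chr1:68150859-68154021 (+) and GADD45B chr19:2476122-2478257 (+). The other members span chr6:109307639-109415708 (-) for SESN1, chr11:94906132-94964246 (-) for SESN3, chr9:92219926-92221469 (+) for GADD45G and chr19:13064971-13068050 (-) for GADD45GIP1. SESN1, SESN3 and GADD45GIP1 overlap annotated genes on the opposite strand, and how strand was used in counting is not given in the sources used here, so their values may include reads of those genes.

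The order of the members by level differed between palmitate and untreated wild-type cells. With palmitate DDIT4 was the most abundant at 321 ± 123 FPKM (SD, n = 3), above GADD45A at 163 ± 66.9 FPKM and SESN2 at 90.0 ± 74.7 FPKM, and this order held in all 3 experiments. GADD45GIP1 followed at 41.8 ± 10.7 FPKM, then GADD45B at 5.22 ± 3.40 FPKM, SESN1 at 4.58 ± 0.992 FPKM, SESN3 at 0.972 ± 0.289 FPKM and GADD45G at 0.517 ± 0.326 FPKM. GADD45B and SESN1 could not be ordered, since GADD45B was above SESN1 in 1 of 3 experiments. In untreated cells GADD45GIP1 came first at 75.5 ± 34.5 FPKM, above GADD45A at 52.4 ± 8.58 FPKM and DDIT4 at 36.5 ± 27.5 FPKM, and each of these steps held in 2 of 3 experiments. SESN2 was above SESN1 in 2 of 3 experiments. SESN2 stood at 11.1 ± 4.74 FPKM, SESN1 at 6.39 ± 0.849 FPKM, GADD45B at 0.676 ± 0.301 FPKM, SESN3 at 0.448 ± 0.303 FPKM and GADD45G at 0.0585 ± 0.0205 FPKM. FPKM were scaled separately in each experiment's table, so these means set levels side by side across tables.

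**Figure D1:**
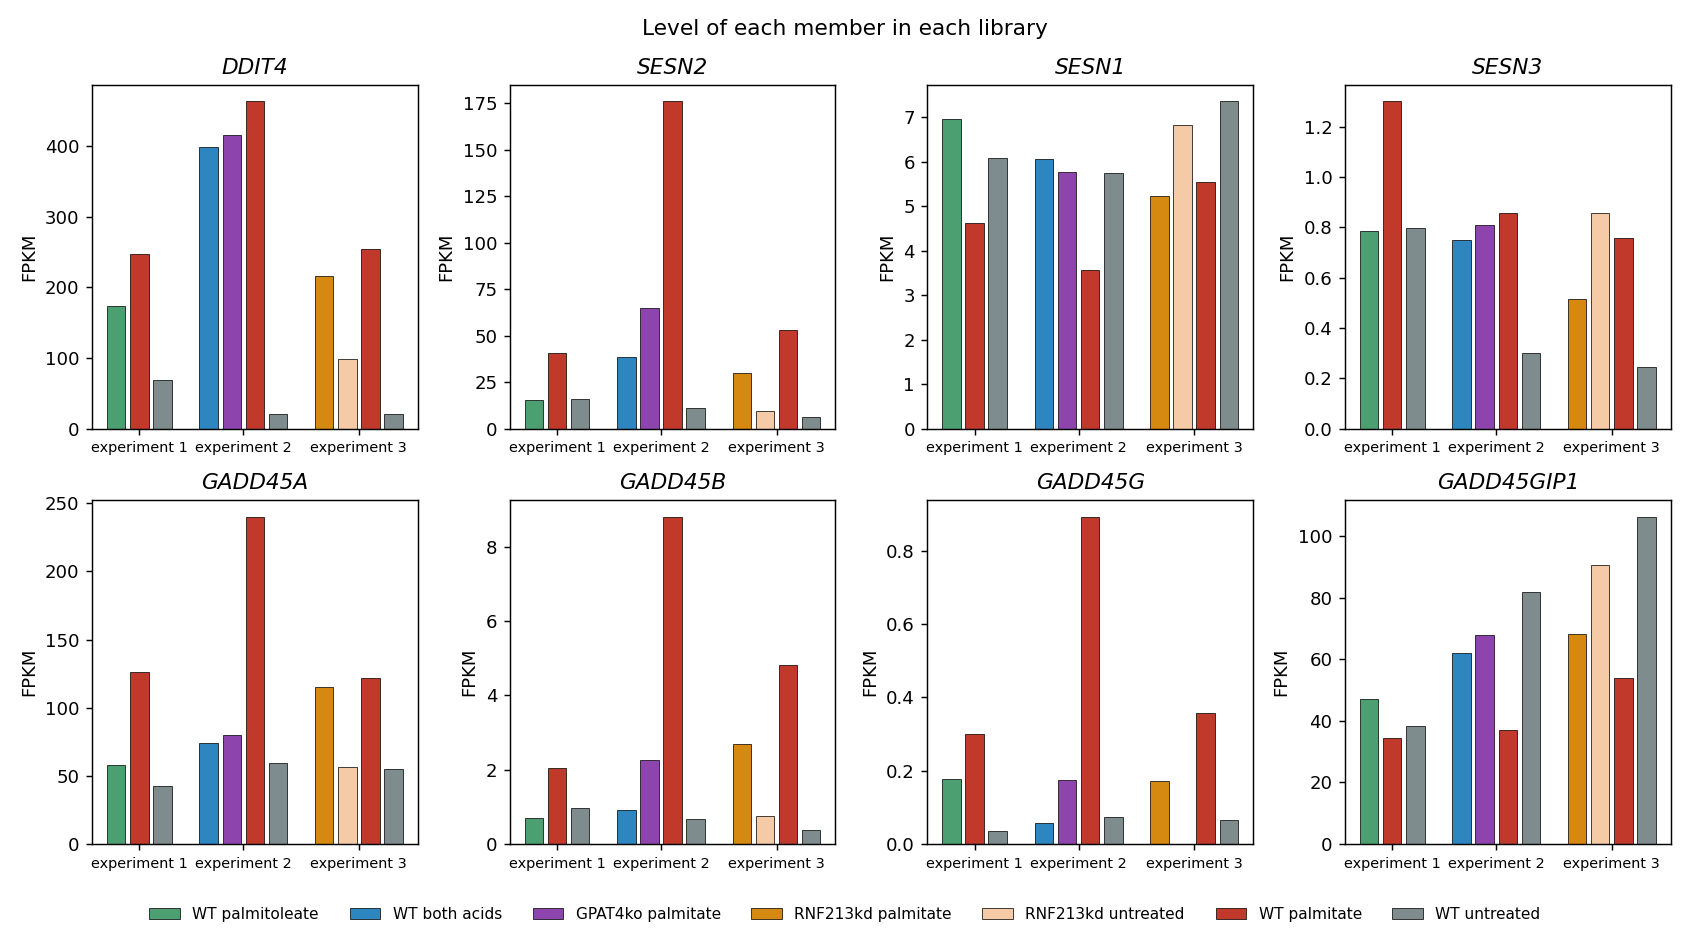
Level of each member in FPKM (vertical axis, from 0, with its own scale per gene) in each of the 11 libraries, 1 bar per library, grouped by experiment. In experiment 2 SESN2 stands at 176 FPKM in wild type with palmitate, against 38.4 FPKM with both acids, while DDIT4 stands at 463 and 399 FPKM in these libraries.

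In wild-type cells 4 of the 6 members that could be tested rose with palmitate: DDIT4, SESN2, GADD45A and GADD45B. Those 4 were called by limma on log2(FPKM + 1) ratios formed within each experiment, at an adjusted p under 0.05 over the 11075 genes that averaged 1 FPKM or more. Over all those genes 6.59% were called higher and 3.84% lower, and 0 of the 6 members were called lower. GADD45G and SESN3 had means under 1 FPKM over the libraries and are given as values. With no pairing of libraries by experiment only DDIT4 was called (limma adjusted p = 0.0357), and the adjusted p was 0.0545 for GADD45A, 0.0662 for SESN2 and 0.079 for GADD45B. In pooled RNA, a change in some cells and a change in all cells cannot be told apart.

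DDIT4 stood at 246, 463 and 253 FPKM in palmitate libraries of experiments 1, 2 and 3, against 68.3, 20.4 and 20.9 FPKM in untreated libraries. Every palmitate library was above every untreated one, and the untreated library of experiment 1 was the highest of the untreated. The share of all genes whose groups separate in this way was not counted, here or for the members below. Such separation also sets side by side levels that were scaled separately. The linear folds were 3.61, 22.7 and 12.2, and the mean log2 ratio was 3.27 ± 0.48 (limma SE, n = 3, 95% interval 2.09 to 4.45, adjusted p = 0.0235). Of all tested genes 0.235% had a larger mean ratio. In limma the call did not hold without experiment 1 (3.99, adjusted p = 0.0521) or without experiment 3 (3.14, adjusted p = 0.145). In these fits 2 ratios remain, and 0 of the 11075 tested genes were called in either, so the loss was not particular to DDIT4 or to the members below. Over the 11 alternatives the limma adjusted p ran from 1.59e-12, without experiment 2, to 0.244, with no filter. The fit without experiment 2 also rests on 2 ratios, and its smallest limma adjusted p over all genes was 2.78e-138.

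SESN2, a sestrin that senses leucine, stood at 40.8, 176 and 53.2 FPKM in palmitate libraries, against 15.7, 11.2 and 6.26 FPKM in untreated libraries. The groups did not overlap, and the palmitate library of experiment 2 stood far above the others. The folds were 2.59, 15.7 and 8.51, and the mean log2 ratio was 2.69 ± 0.47 (limma SE, n = 3, 95% interval 1.53 to 3.85, adjusted p = 0.0309). Without experiment 1 it was 3.38 (limma adjusted p = 0.0525), and without experiment 3 it was 2.59 (adjusted p = 0.161). Over its 11 alternatives the limma adjusted p ran from 4.38e-06, without experiment 2, to 0.258, with no filter, and 7 of them called it.

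SESN1, which like SESN2 binds GATOR2, stood at 4.63, 3.56 and 5.54 FPKM in palmitate libraries, against 6.07, 5.75 and 7.35 FPKM in untreated libraries. Each palmitate library was below all 3 untreated ones, but the mean log2 ratio of -0.42 ± 0.19 (limma SE, n = 3, 95% interval -0.89 to 0.06) did not pass the test (adjusted p = 0.195). SESN3, the third sestrin and a known FOXO target, stood at 1.30, 0.857 and 0.758 FPKM with palmitate, against 0.796, 0.301 and 0.245 FPKM untreated. These groups overlapped, while within each experiment the palmitate library was the higher, with log2 ratios of 0.36, 0.51 and 0.50. SESN2 and SESN1 thus lay on opposite sides of 0 in all 3 experiments, with SESN2 at 1.32, 3.86 and 2.90 and SESN1 at -0.33, -0.57 and -0.35 on the log2 scale.

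GADD45A stood at 127, 240.2 and 122 FPKM in palmitate libraries, against 42.8, 59.4 and 55.0 FPKM in untreated libraries. The groups did not overlap, and GADD45A had the narrowest spread of ratios among the 4 called members, at 1.54, 2.00 and 1.14. Its mean log2 ratio was 1.56 ± 0.23 (limma SE, n = 3, 95% interval 0.99 to 2.13, adjusted p = 0.0238), with 3.22% of tested genes above it. Without experiment 1 its adjusted p was 0.0625 in limma, and without experiment 3 it was 0.132. Over its 11 alternatives the adjusted p ran from 0.00101 to 0.234, and 7 of them called it.

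GADD45B stood at 2.04, 8.81 and 4.80 FPKM in palmitate libraries, against 0.983, 0.663 and 0.382 FPKM in untreated libraries. It was near or under 1 FPKM without palmitate, and the groups did not overlap. The linear folds of 2.08, 13.3 and 12.6 were larger than its log2 ratios of 0.62, 2.56 and 2.07 convey, since the added 1 FPKM shrinks ratios of low genes. The mean log2 ratio was 1.75 ± 0.38 (limma SE, n = 3, 95% interval 0.82 to 2.68, adjusted p = 0.0451), and it was 2.63 with a pseudocount of 0.1. Its adjusted p in limma was 0.0525 without experiment 1 and 0.202 without experiment 3. Over its 10 alternatives the limma adjusted p ran from 4.26e-05, without experiment 2, to 0.294, with no filter, and 6 of them called it.

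GADD45G, the third GADD45 protein, stood at 0.301, 0.893 and 0.358 FPKM in palmitate libraries, against 0.0353, 0.0739 and 0.0665 FPKM in untreated libraries. The palmitate libraries were the higher in all 3 experiments, at levels whose counting error is unknown. GADD45GIP1 stood at 34.4, 36.9 and 54.0 FPKM in palmitate libraries, against 38.2, 81.9 and 106 FPKM in untreated libraries. It was lower with palmitate within each experiment, but the groups overlapped and the mean log2 ratio of -0.75 ± 0.26 (limma SE, n = 3, 95% interval -1.37 to -0.12) did not pass the adjusted test (adjusted p = 0.109).

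**Figure D2:**
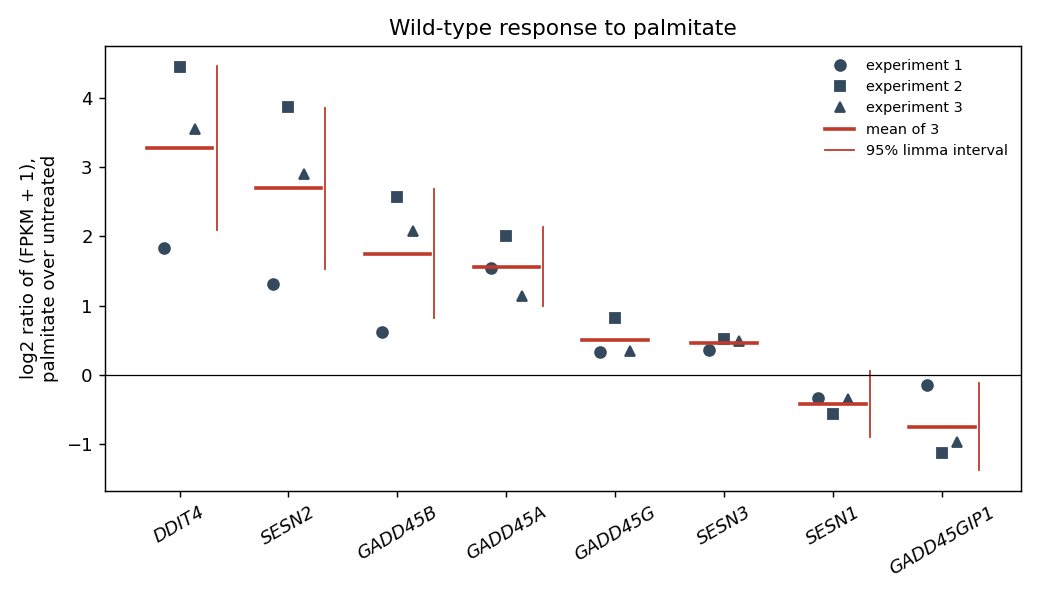
Log2 ratio of (FPKM + 1), palmitate over untreated wild type, for each member, with 1 point per experiment, a bar at the mean of 3 and, for the 6 tested members, a line for the 95% limma interval. Experiment 1 gives the smallest ratio for DDIT4 (1.84), SESN2 (1.32) and GADD45B (0.62), and for GADD45A the smallest is that of experiment 3 (1.14).

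DDIT4, SESN2 and GADD45B each had their lowest ratio in experiment 1 and their highest in experiment 2. In experiment 1 the ratios of all genes also followed the GC content of their transcripts (Spearman -0.63 across genes, against -0.02 and 0.15 in experiments 2 and 3). With that trend removed the mean log2 ratios were 3.48 for DDIT4, 2.93 for SESN2, 1.65 for GADD45A and 1.99 for GADD45B, and all 4 were called (limma adjusted p 0.0107 to 0.0142). That setting called 1475 of 9637 tested genes higher and 1205 lower, against 730 and 425 of 11075 in the main test. The part of the GC trend in the spread between experiments was not tested.

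With palmitoleate alone, in experiment 1, the level of DDIT4 lay between its untreated and palmitate levels. The dose of palmitoleate alone is not given, so these values stand side by side with those of palmitate. DDIT4 stood at 174 FPKM with palmitoleate, 246 FPKM with palmitate and 68.3 FPKM untreated. On the log2(FPKM + 1) scale, on which all counts at 2-fold are made here, it was the 1 member at 2-fold or more above untreated with palmitoleate (1.34), where 0.605% of all tested genes were, and its 95% interval, borrowed from the wild-type ratios, ran from -0.71 to 3.38 (limma adjusted p = 0.8). The ratios of that comparison followed GC content across genes (Spearman -0.76), and with the trend removed DDIT4 had a log2 ratio of 1.91. GADD45G stood at 0.178 FPKM with palmitoleate and 0.0353 FPKM untreated, a linear fold of 5.05 at levels that the added 1 FPKM shrinks to 0.19.

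SESN2 stood at 15.7 FPKM with palmitoleate, 40.8 FPKM with palmitate and 15.7 FPKM untreated. The log2 ratio of palmitoleate to untreated was -0.01 with a wide interval, -2.02 to 2.00, and it turned to 0.63 with the GC trend removed. GADD45A stood at 57.7 FPKM with palmitoleate, 127 FPKM with palmitate and 42.8 FPKM untreated, and GADD45B at 0.706, 2.04 and 0.983 FPKM in the same order. The log2 ratio of GADD45B, palmitoleate to untreated, was -0.22 and turned to 0.43 with the GC trend removed. Against palmitate, GADD45A (log2 ratio -1.12, interval -2.11 to -0.13) and SESN2 (-1.33, interval -3.34 to 0.68) were at least 2-fold lower with palmitoleate, as were 4.66% of all tested genes. Neither passed the adjusted test (limma adjusted p = 0.869 for GADD45A and 1 for SESN2). DDIT4 differed least of the 3, at -0.50 with an interval of -2.54 to 1.55. SESN1 stood at 6.96 FPKM with palmitoleate, against 4.63 FPKM with palmitate, and GADD45GIP1 at 47.0 FPKM with palmitoleate, against 34.4 FPKM with palmitate.

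With both acids in experiment 2, DDIT4 stood near its palmitate level while SESN2, GADD45A and GADD45B stood well under theirs. DDIT4 was at 399 FPKM with both acids, 463 FPKM with palmitate and 20.4 FPKM untreated. SESN2 was at 38.4 FPKM with both acids, 176 FPKM with palmitate and 11.2 FPKM untreated. GADD45A was at 74.1 FPKM with both acids, 240.2 FPKM with palmitate and 59.4 FPKM untreated.

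GADD45B was at 0.912 FPKM with both acids, 8.81 FPKM with palmitate and 0.663 FPKM untreated. Against palmitate the log2 ratios were -2.36 for GADD45B (interval -3.97 to -0.75), -2.17 for SESN2 (-4.18 to -0.16) and -1.68 for GADD45A (-2.67 to -0.70), against -0.21 for DDIT4 (-2.26 to 1.83). Those 3 members were past 2-fold lower, where 10.2% of all tested genes were. None passed the test over all genes. With small RNA genes left out, an alternative chosen after seeing the data, GADD45B and GADD45A did and SESN2 did not. Under that alternative 416 of 10875 tested genes were called lower and 199 higher, against 2 and 3 of 11075 in the main test. Against untreated cells DDIT4 had a log2 ratio of 4.23 (interval 2.18 to 6.27, limma adjusted p = 1) and SESN2 of 1.69 (-0.32 to 3.70), and these 2 were at least 2-fold higher, as were 1.12% of tested genes. SESN1 stood at 6.06 FPKM with both acids, against 3.56 FPKM with palmitate and 5.75 FPKM untreated, and GADD45GIP1 at 62.0 FPKM with both acids, against 36.9 FPKM with palmitate and 81.9 FPKM untreated.

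In GPAT4ko cells given palmitate, DDIT4 again stood near the wild-type palmitate level and SESN2, GADD45A and GADD45B stood under it, measured against the same wild-type palmitate library. DDIT4 stood at 415 FPKM in GPAT4ko cells and 463 FPKM in wild type, both with palmitate. SESN2 stood at 65.1 FPKM in GPAT4ko cells and 176 FPKM in wild type. GADD45A stood at 79.9 FPKM in GPAT4ko cells and 240.2 FPKM in wild type.

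GADD45B stood at 2.27 FPKM in GPAT4ko cells and 8.81 FPKM in wild type. The log2 ratios were -1.59 for GADD45B (interval -3.20 to 0.03), -1.58 for GADD45A (-2.56 to -0.59) and -1.42 for SESN2 (-3.43 to 0.59), against -0.16 for DDIT4 (-2.20 to 1.89). The first 3 were at least 2-fold lower, as were 8.06% of tested genes, and none passed the adjusted test (limma adjusted p = 0.389, 0.303 and 0.49). The wild-type palmitate library that both comparisons share is the highest of the 3 wild-type palmitate libraries for DDIT4, SESN2, GADD45A and GADD45B. GADD45GIP1 stood at 68.0 FPKM in GPAT4ko cells and 36.9 FPKM in wild type. The untreated GPAT4ko library has no values under its name, so a level without palmitate was not analysed here.

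In RNF213kd cells DDIT4 was the member with the largest log2 ratio to wild type without palmitate. It stood at 98.4 FPKM in untreated RNF213kd cells and 20.9 FPKM in untreated wild type, a linear fold of 4.72 and a log2 ratio of 2.19 (interval 0.14 to 4.23, limma adjusted p = 1). On the log2(FPKM + 1) scale DDIT4 was the 1 member past 2-fold there, where 0.46% of tested genes were higher, while the linear folds of GADD45B and SESN3, both under 1 FPKM, were 2.01 and 3.49. SESN2 stood at 9.33 FPKM in untreated RNF213kd cells and 6.26 FPKM in untreated wild type, GADD45B at 0.766 and 0.382 FPKM, and GADD45A at 56.8 and 55.0 FPKM. Ratios of that comparison followed GC content across genes (Spearman 0.63), and with the trend removed DDIT4 had a log2 ratio of 1.95.

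Under palmitate none of the members was past 2-fold between RNF213kd and wild-type cells on the log2(FPKM + 1) scale, where 0.804% of tested genes were lower. GADD45G, at 0.173 FPKM in RNF213kd cells and 0.358 FPKM in wild type, had a linear fold of 0.483. DDIT4 stood at 216 FPKM in RNF213kd cells and 253 FPKM in wild type, SESN2 at 29.9 and 53.2 FPKM, GADD45A at 115 and 122 FPKM, and GADD45B at 2.68 and 4.80 FPKM. The intervals of the log2 ratios remained wide, at -2.27 to 1.82 for DDIT4 and -2.82 to 1.20 for SESN2, and narrower for GADD45A at -1.07 to 0.91.

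Within RNF213kd cells palmitate gave log2 ratios of 1.58 for SESN2, 1.13 for DDIT4, 1.06 for GADD45B and 1.01 for GADD45A, and these 4 were at least 2-fold higher, as were 2.74% of tested genes. The difference from the wild-type ratio of the same experiment, RNF213kd minus wild type, was -2.41 ± 1.18 for DDIT4 (SE from the borrowed spread, interval -5.31 to 0.48, limma adjusted p = 1). It was -1.32 for SESN2 (-4.17 to 1.52), -1.01 for GADD45B (-3.29 to 1.27) and -0.13 for GADD45A (-1.53 to 1.27). None of these differences passed the test. Each is made of the same libraries as the ratios of RNF213kd to wild type above, so it is not separate from them. For DDIT4, RNF213kd and wild type stood at 98.4 and 20.9 FPKM untreated, and at 216 and 253 FPKM with palmitate. GADD45G was listed at 0 in untreated RNF213kd cells and at 0.173 FPKM in RNF213kd cells with palmitate.

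**Figure D3:**
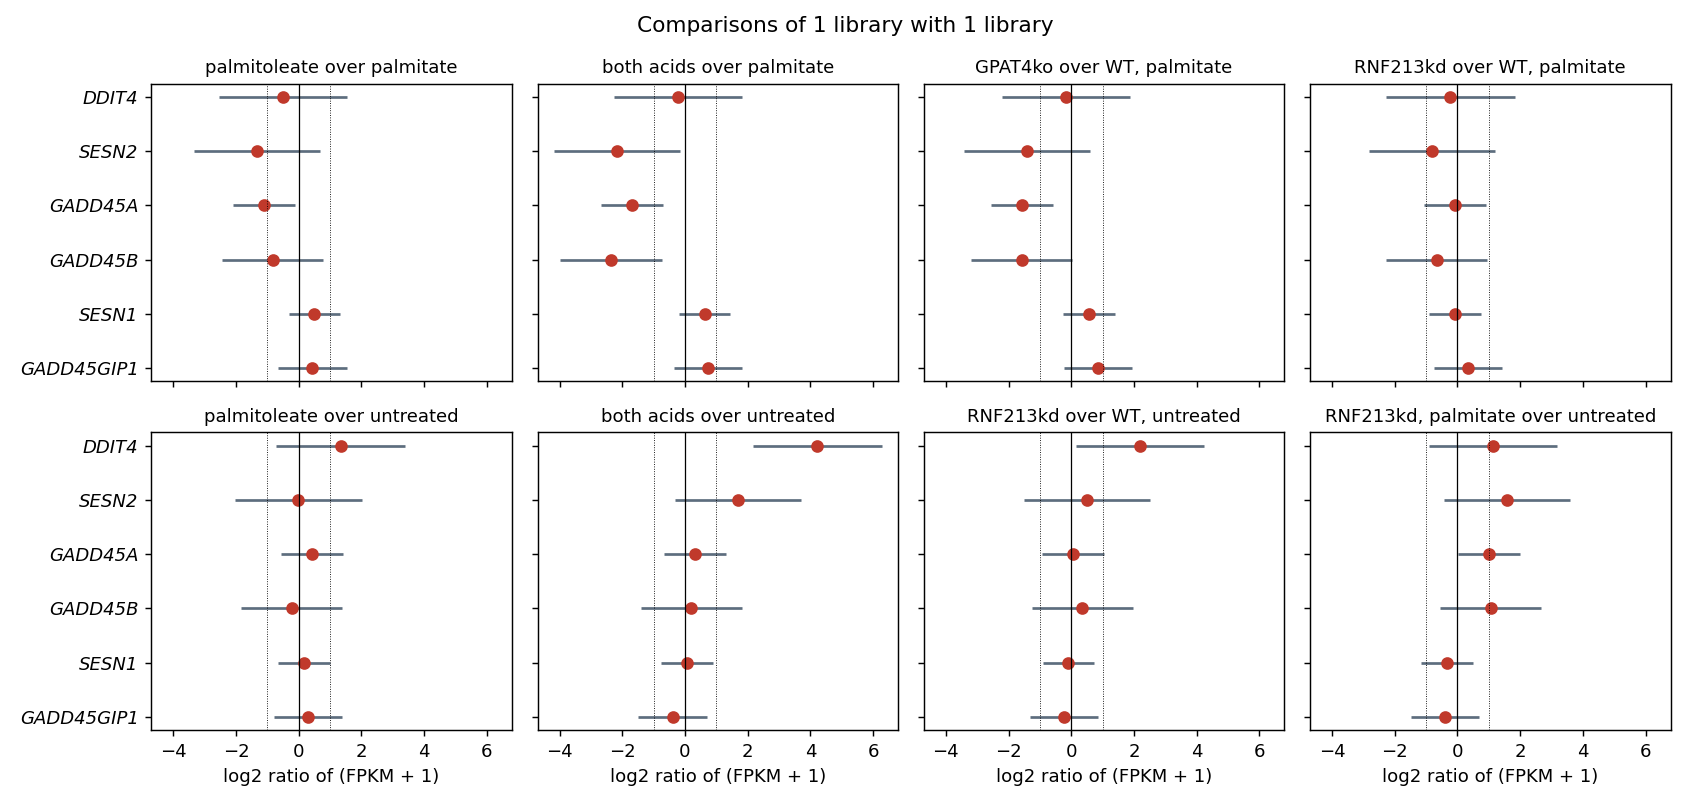
Log2 ratio of (FPKM + 1) for the 6 tested members in 8 comparisons of 1 library with 1 library, with 95% intervals borrowed from the spread of the wild-type palmitate ratios and dotted lines at 2-fold. In the 2 panels for both acids and for GPAT4ko over palmitate, DDIT4 lies at -0.21 and -0.16, and SESN2, GADD45A and GADD45B lie at -1.42 or lower.

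The genes whose levels followed each member most closely over the 11 libraries, after centring on the mean of each table, differed between members. For DDIT4 they were RNF41, CHAC1 and C9orf91 (Pearson r 0.96, 0.96 and 0.95), and for SESN2 they were ATF4, TRIB3 and HSPA6 (0.99 each). ATF4 is the transcription factor of the integrated stress response, and TRIB3 and CHAC1 are known targets of it. For GADD45A they were NCOA3, TFPI and FLJ43663, for GADD45B GCC1, ZNF274 and PRAF2, and for GADD45GIP1 CEBPZ, NUP133 and C17orf79 (0.99 each). For SESN1 they were DYNLL1, C17orf58 and WDR7 (0.97, 0.97 and 0.96). Among members r was 0.95 for SESN2 and GADD45B, 0.91 for GADD45A and GADD45B, 0.85 for SESN2 and DDIT4 and 0.66 for GADD45A and DDIT4. It was -0.95 for GADD45B and GADD45GIP1 and -0.93 for GADD45A and SESN1. These values are descriptions, since the libraries of a table share their scaling.

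ATF4 itself stood at 372 FPKM with both acids, 445 FPKM in GPAT4ko cells with palmitate, 641 FPKM in wild type with palmitate and 175 FPKM untreated in experiment 2. In untreated cells of experiment 3 it stood at 156 FPKM in RNF213kd and 122 FPKM in wild type. With palmitate in that experiment ATF4 stood at 258 FPKM in RNF213kd and 345 FPKM in wild type. In experiment 1 ATF4 stood at 228 FPKM with palmitoleate, 335 FPKM with palmitate and 229 FPKM untreated. DDIT4 stood at 174, 246 and 68.3 FPKM in these libraries, in the same order.

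The pathways around the members were described by 6 lists, read from the wild-type palmitate test, where the median log2 ratio of all tested genes was -0.06, 6.59% of them were called higher and 3.84% lower. Of the regulators known to drive the members, 7 of 15 tested rose, 0 fell and the median was 0.88. The largest changes among those called were in ATF3 (4.84), DDIT3 (3.04), EPAS1 (2.26) and CEBPB (1.91), with ATF3, DDIT3 and CEBPB known as stress-response leucine zipper factors and EPAS1 as a hypoxia-inducible factor.

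The shares called higher among the partners through which the members act were near that of all tested genes for GADD45 partners, leucine sensing and mTORC1. Of 16 tested GADD45 partners and stress kinases, 1 rose, the cyclin-dependent kinase inhibitor CDKN1A (3.91, limma adjusted p = 0.023), and 1 fell, the p38 kinase activator MAP2K3 (-1.32, limma adjusted p = 0.034), with a median of -0.43. PCNA, the replication clamp, had a log2 ratio of -1.53 and NPM1, a nucleolar chaperone, of -0.78, and neither was called (limma adjusted p = 0.0548 and 0.108). Of 19 tested genes of leucine sensing (GATOR, KICSTOR and Rag), SLC38A9, a lysosomal arginine sensor, rose (0.91), 0 fell and the median was -0.26. RRAGC, a Rag GTPase, had a log2 ratio of 0.98, NPRL3 of GATOR1 of -0.98 and SEC13 of GATOR2 of 0.60, none of them called.

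Of 20 tested genes of mTORC1, its TSC brake and its outputs, PRKAB2, an AMPK subunit, rose (1.48), 0 fell and the median was -0.17. The kinases AKT1 (-0.93) and AKT2 (-0.83) and the mTOR subunit MLST8 (-0.74) were not called. Of 11 sestrin redox partners 3 rose, namely SQSTM1 (2.97), the autophagy receptor p62, NFE2L2 (1.34), the antioxidant regulator NRF2, and SRXN1 (1.29), sulfiredoxin. PRDX2 (-0.84), a peroxiredoxin, fell, and the list median was -0.10. Of 49 large mitoribosome genes, the neighbours of GADD45GIP1, 0 rose and 4 fell: MRPL34 (-1.21), MRPL12 (-1.10), MRPL36 (-0.88) and MRPL14 (-0.87). Their median was -0.48, and GADD45GIP1 itself stood at -0.75.

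**Figure D4:**
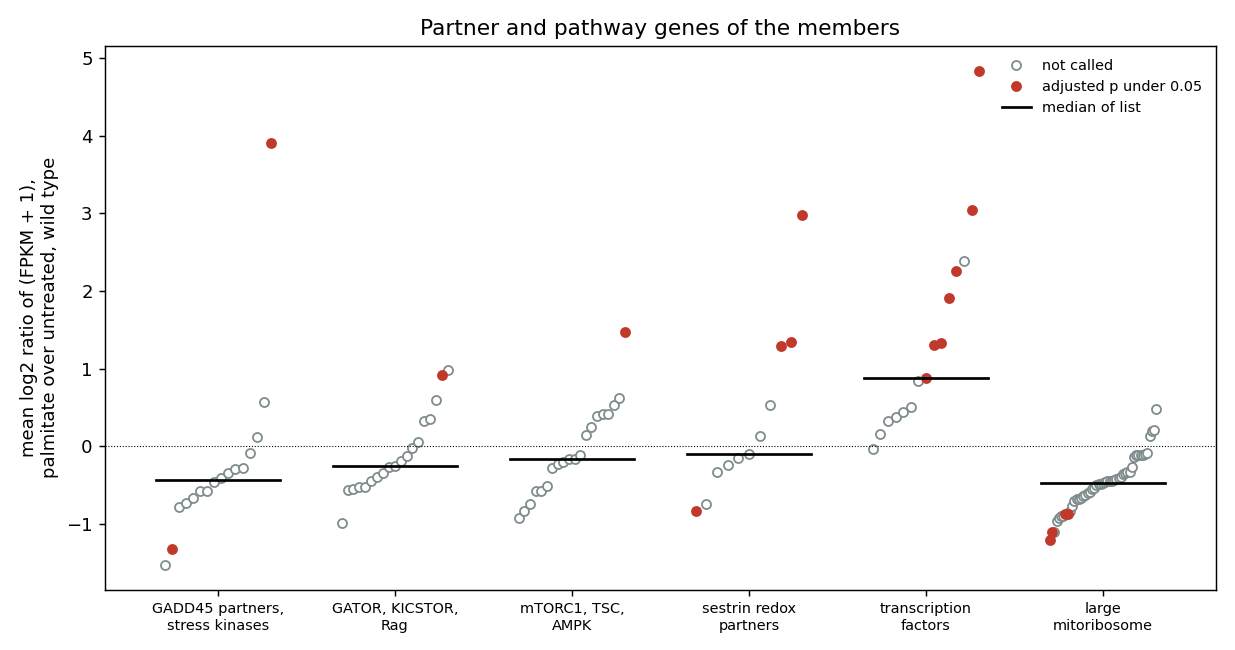
Mean log2 ratio of (FPKM + 1), palmitate over untreated wild type, for each tested gene of 6 lists, with filled points for an adjusted p under 0.05 and a bar at the list median. The regulators have the highest median (0.88) and the large mitoribosome the lowest (-0.48).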

How the data were processed

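RNA of 3 biological replicates was pooled before each library was made, so a library carries no spread between cultures, and p-values here measure the spread between experiments. The deposited FPKM values were scaled by the authors with Cuffdiff after mapping with TopHat2 to hg19, per the submitters' processing notes, with versions not given in the sources used here. Each experiment has its own table, so each ratio, taken on log2(FPKM + 1), stays within a table. For palmitate in wild type, 3 such ratios were averaged and tested in limma 3.58.1 under R 4.3.3, with a trend on the mean level and Benjamini-Hochberg adjustment (call at 0.05) over the 11075 genes that averaged 1 FPKM or more. The test was also run on simulated data. Comparisons of 1 library with another borrow the moderated standard deviation of these ratios (residual degrees of freedom 2, prior 3.86). This takes a lone library to vary likewise. Genes there are counted at 2-fold or more.

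The experiments pair the libraries: across genes, deviations from the group mean correlated at 0.458, 0.634 and 0.696 between palmitate and untreated libraries of the same experiment, and at -0.526 to 0.011 between experiments. Deviations from a group mean cancel out, so positive values within experiments force lower ones between them. The values between experiments are thus not separate support for the pairing. Read counts are not given. The most frequent ratio of values under 0.05 FPKM puts the worth of 1 read at 0.901 to 1.11 times that of the untreated library of its table. No counting interval was formed.

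Genes marked as failed or capped, symbols turned into dates and genes whose listings differed by over 0.01 of their value were left out. The tables hold 2 libraries that the labels lack, and these were left out. No values stand under the name of the untreated GPAT4 knockout of the labels. The members and the 6 lists of partner genes were chosen with earlier results of these data known. Named from each list are the 4 called genes with the largest mean change, filled up from tested genes where fewer were called. For each tested member, the 3 genes of most similar pattern were named by Pearson correlation over 11 libraries. Other genes were named after their values were seen. GC content came from the longest GENCODE v44lift37 transcript, matched for 87% of tested genes. The alternatives tried were median centring, a pseudocount of 0.1, a mean of 5 FPKM, no filter, no pairing, no trend, no small RNA genes, GC trend removed (lowess window of 0.3), a 1.5-fold call and leaving out each experiment. Some results are not reported here.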

Additional observations from a re-analysis of the deposited data

Results flagged for a closer look

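SESN3 moved in opposite directions with palmitate in the RNF213 knockdown and in wild-type cells. In the knockdown it stood at 0.517 FPKM with palmitate and 0.856 FPKM untreated, a log2 ratio of -0.29. In wild type of the same experiment it stood at 0.758 FPKM with palmitate and 0.245 FPKM untreated, a log2 ratio of 0.50, and the wild-type ratios of experiments 1 and 2 were 0.36 and 0.51. The difference, knockdown minus wild type, was -0.79. It was not tested, because the gene lay under the filter on low values, and it rests on 1 library for each state.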

How the results depend on the processing

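In wild type, 730 genes were called higher and 425 lower. The counts were 0 and 0 with no filter, and 262 and 52 with no replicate block. They were 1233 and 1206 without small RNA genes, and 1475 and 1205 with the GC trend removed. Leaving out experiment 1 or experiment 3 gave 0 and 0, and leaving out experiment 2 gave 599 and 291. Of the members, 4 were called higher, 0 with no filter, 1 (DDIT4) with no replicate block, so without the pairing, and 0 to 4 when an experiment was left out. With no filter the 4 members had adjusted p values of 0.234 to 0.294. At 2-fold or more, a pseudocount of 0.1 brought the count of members to 2 for palmitoleate against untreated (main count 1). The count was also 2 for the RNF213 knockdown against wild type untreated (main count 1). It was 3 for palmitoleate against palmitate and for both fatty acids against untreated (main count 2 each). For both fatty acids against palmitate and for the GPAT4 knockout under palmitate it was 4 (main count 3 each). Not every change by 1 member is listed. Calls at 1.5-fold brought the count of members to 6 for both fatty acids against palmitate and to 5 for the GPAT4 knockout under palmitate (main count 3 each). They brought it to 2 for the RNF213 knockdown under palmitate (main count 0). The share of all tested genes past 2-fold with that pseudocount, or past 1.5-fold, was not counted, so these member counts have no background beside them. Of 307 recomputed member ratios, 6 changed sign, all with the GC trend removed and all with a main log2 ratio under 0.22 in size: SESN1, SESN2 and GADD45B with palmitoleate, GADD45G with both acids, and GADD45A and SESN1 in the RNF213 knockdown, each against untreated wild type. The GPAT4 knockout against wild type untreated was not run, because no values stand under that sample's name. Read depth being unknown, values under 1 FPKM (GADD45G and SESN3) carry an unknown counting error.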
